A study of Mus musculus with 9 samples.

Results

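The 35 genes described here carry a cell through mitosis: cyclins and the switch that controls CDK1, mitotic kinases, the spindle checkpoint, the chromosomal passenger complex, centromere and kinetochore proteins, spindle motors, anaphase factors and topoisomerase II alpha. They were picked out of the 33233 genes in the count files by a list of names rather than by a threshold on their values, although that list was drawn up with earlier results of these data known. All 35 were found, and all 35 were among the 16532 genes with enough reads to be tested. The RNA came from KH2 cells, a mouse embryonic stem (ES) cell line, in 3 groups of 3 libraries: wild type, CBFA2T2 knockout and PRDM14 knockout. CBFA2T2 is a transcriptional co-repressor, and PRDM14 is a DNA-binding regulator of pluripotency and germ cell formation. Cells of all 3 groups were kept in medium with Lif on feeder cells, and the feeders were taken off before RNA was extracted. The series calls the replicates biological, but whether a genotype is 1 clone or several is not stated, so the p-values measure the spread between these libraries.

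Entry into mitosis is driven by CDK1 bound to cyclin B, which WEE1 holds inactive and CDC25 phosphatases release. Aurora and Polo-like kinases and kinesin motors then build the spindle, kinetochores attach chromosomes to it, and the spindle checkpoint keeps CDC20 from activating the anaphase-promoting complex (APC/C) until attachment is complete. APC/C then marks cyclin B and securin for destruction, and separase cuts the cohesin that joins sister chromatids. Mouse ES cells are known for rapid division with short gap phases, and RNA of most of these genes is highest shortly before and during mitosis.

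Library totals ran from 10309196 to 20129490 counts, and members had 207 to 21449 counts in a library. Levels are given as CPM, reads relative to the library's total, after scaling the libraries by the trimmed mean of M-values (TMM). Cbfa2t2 had 166, 159.6 and 177 CPM in wild type and fell to 99.2, 44.9 and 84.8 in its own knockout. Prdm14, however, was at 41.4, 42.2 and 63.5 CPM in the libraries labelled PRDM14 knockout and at 18.4, 14.6 and 15.0 in wild type, which goes against that label if the deleted part of the gene is counted; which part was deleted is not given in the sources used here. These libraries are therefore called PRDM14-labelled, and every direction given for them rests on that label. The summed level of 10 pluripotency markers was 4797 to 5043 CPM in wild type, 2412 to 2832 in CBFA2T2 knockout and 3119 to 3566 in PRDM14-labelled libraries. All 10 were detected in every group; 9 were lower and 1 (Nanog) higher in CBFA2T2 knockout, and 8 were lower and 1 (Nanog) higher in PRDM14-labelled libraries. For the 18 tested of 20 fibroblast markers, which the feeder cells would carry, the sums were 1526 to 1593, 1860 to 3196 and 1797 to 3304 CPM; 6 markers rose in CBFA2T2 knockout, 5 rose in PRDM14-labelled libraries and none fell. The fibroblast markers that were not tested, Lum and Fap, had 0 to 5 counts in every library. Dcn was at 1.59 to 1.80 CPM in the group means, while Col1a1 went from 98.8 CPM in wild type to 374 and 382 CPM. In the same order of groups, the means were 19.1, 238 and 112 CPM for Tagln and 37.2, 197 and 157 for Acta2. For Lox they were 27.7, 134 and 154 CPM. Fn1 alone made up most of the wild-type sum, with means of 1006 CPM there, 935 in CBFA2T2 knockout and 1124 in PRDM14-labelled libraries. How much of these sums came from feeder cells was not tested.

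In CBFA2T2 knockout cells 15 of the 35 members fell against wild type, 3 rose and 17 did not pass the test (edgeR's quasi-likelihood test, adjusted p under 0.05 over all 16532 genes). Cdc20, which activates APC/C at anaphase, fell by 36.8%, and the separase gene Espl1, the phosphatase gene Cdc25a, the APC/C ubiquitin-conjugating enzyme gene Ube2c and the passenger complex scaffold gene Incenp came next by adjusted p. The genes that rose were Cenpe, Cdc25c and Ndc80. Fold sizes of called members lay between 1.15 and 1.58, and no member changed by 2-fold or more. The median log2 fold change over the 35 was −0.21, a change of −13.3%, beside 0.0072 over all tested genes, and 29 of the 35 values were negative.

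The background in this comparison was wide. Of all tested genes 38.5% were called, 18.9% higher and 19.6% lower, beside 51.4% of the members, 8.57% higher and 42.9% lower. For 23 members (65.7%) no knockout library fell inside the wild-type range or the reverse, beside 53.7% of all tested genes. The share of members that fell was thus above the share of all genes that fell, and the share that rose was below it. Whether these gaps exceed chance was not tested. All members had 207 or more counts per library, while the background also held genes with fewer. When only the 11915 genes averaging 5 CPM or more were tested, 12 members fell and 3 rose in CBFA2T2 knockout. Of those genes 5385 were called, 50.7% of these higher. The called share of the members was then slightly below that of the genes, while the share that fell was still above. Fewer cells in mitosis and less RNA per cell cannot be told apart in bulk RNA. Leaving out CBFA2T2 knockout replicate 2 left 9 members lower, leaving out wild type replicate 2 or 3 left 10, and leaving out any 1 of the 6 libraries left 0 or 1 higher. With scaling by library totals alone, 9 fell and 3 rose.

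In PRDM14-labelled libraries 8 of the 35 members were lower than in wild type, 1 was higher and 26 did not pass the test. Cdc20 fell by 37.3%, followed by adjusted p by Incenp, Cdc25a, Plk1 (the Polo-like kinase of spindle assembly), Espl1, Bub1b, Nek2 and Ube2c; Cenpe rose by 24.3%. This comparison and the one before it use the same wild-type libraries, so their calls are not independent of each other. The median log2 fold change of the members was −0.11, a change of −7.11%, beside 0.021 over all tested genes.

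Here the called share of the members was not above the background: 25.7% of members beside 29.9% of all tested genes. By direction, 22.9% of members were lower beside 15.3% of all genes, and 2.86% were higher beside 14.6%. The groups' library ranges were separate for 15 members (42.9%), beside 45.1% of all genes. The count of lower members was 5 without PRDM14-labelled replicate 2 or replicate 3 and with library totals alone, and 4 without wild type replicate 2 or 3. It was 10 without PRDM14-labelled replicate 1.

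**Figure D1:**
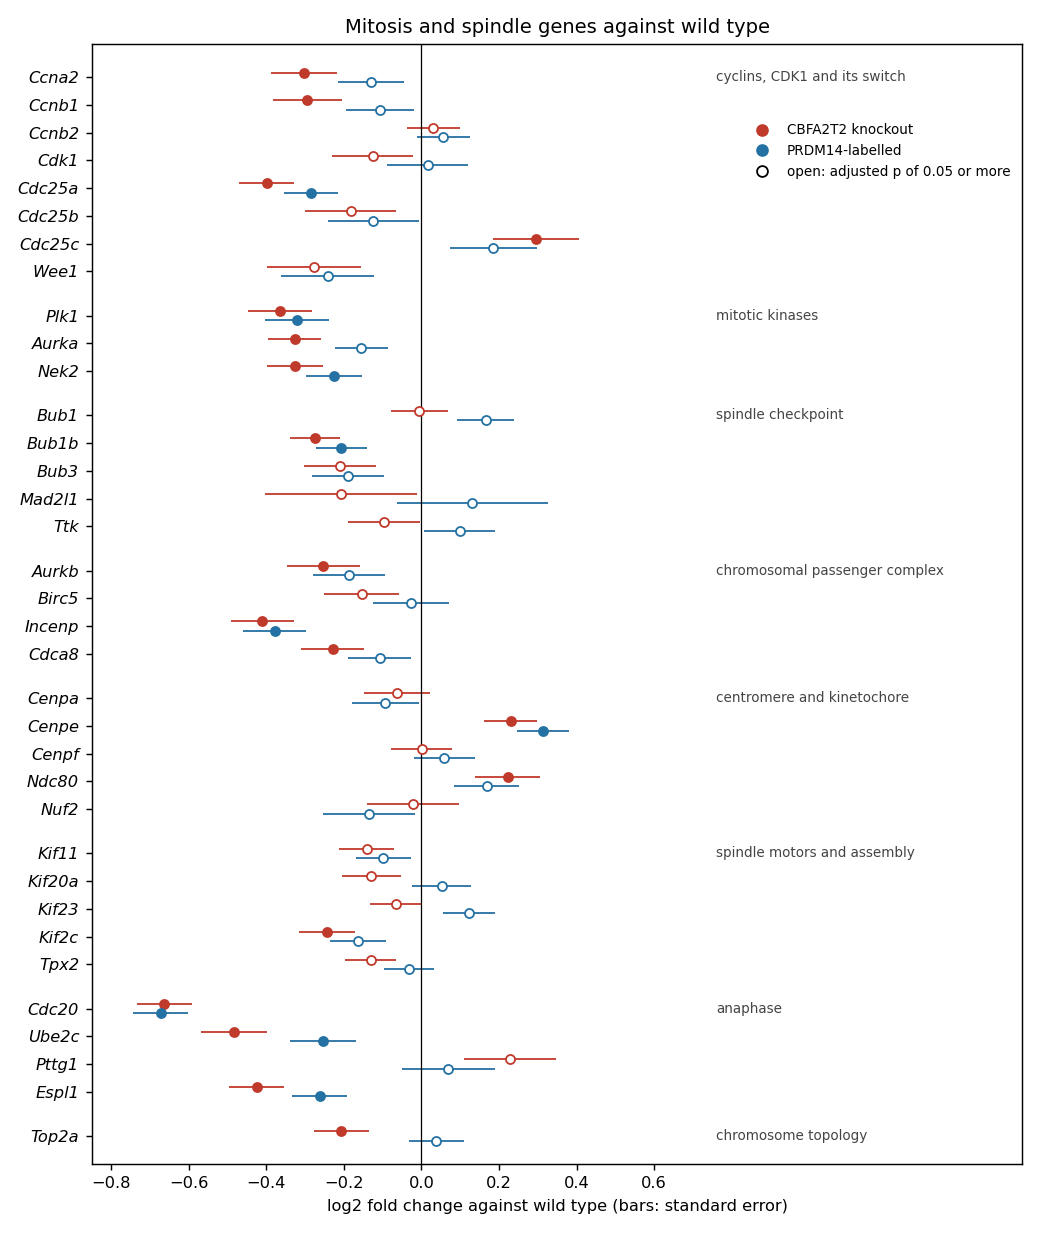
Log2 fold change against wild type (x axis) of each of the 35 members (rows, grouped by role) in CBFA2T2 knockout (red) and PRDM14-labelled libraries (blue), with bars of 1 standard error and open circles where the adjusted p was 0.05 or more. Cdc20 lies at −0.66 and −0.67, left of all other members, and Cenpe is filled on the right side in both groups.

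The anaphase genes held the member with the largest change, and 3 of these 4 genes fell in both CBFA2T2 knockout and PRDM14-labelled libraries. Cdc20 (chr4:118432901-118437352, minus strand) was at 255, 272 and 264 CPM in wild type replicates 1 to 3, at 165, 172 and 162 in CBFA2T2 knockout and at 173, 168 and 155 in PRDM14-labelled libraries. All 6 of these libraries lay well below every wild-type library, and the 2 groups they form overlapped each other. The log2 fold changes were −0.66 ± 0.07 (SE; adjusted p = 1.17e-05) and −0.67 ± 0.07 (adjusted p = 1.61e-05). Reads of Cdc20 can be shared with the antisense gene Elovl1 over 2.84% of its exon length, if the counting ignored strand.

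Espl1 (chr15:102296293-102324356) encodes separase, the protease that cuts cohesin. It was at 241, 243 and 245 CPM in wild type, 184, 183 and 176 in CBFA2T2 knockout and 211, 211 and 186 in PRDM14-labelled libraries. The 3 groups did not overlap, with CBFA2T2 knockout lowest; the log2 fold changes were −0.42 ± 0.07 (adjusted p = 0.000399) and −0.26 ± 0.07 (adjusted p = 0.0129). The second call was lost without PRDM14-labelled replicate 3, wild type replicate 2 or wild type replicate 3, at adjusted p between 0.0501 and 0.0548.

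Ube2c (chr2:164769898-164778822) supplies APC/C with ubiquitin. Its levels were 154, 144 and 137 CPM in wild type, 102, 106 and 103 in CBFA2T2 knockout and 137, 114 and 114 in PRDM14-labelled libraries. CBFA2T2 knockout lay below both other groups, whereas PRDM14-labelled replicate 1 reached the lowest wild-type library. Log2 fold changes were −0.48 ± 0.09 (adjusted p = 0.000665) and −0.25 ± 0.09 (adjusted p = 0.0385). The second call was lost without any 1 wild-type library or PRDM14-labelled replicate 2 or 3, at adjusted p up to 0.147. Library totals alone also lost it (adjusted p = 0.0931). Exons of Tnnc2 on the other strand cover 22.8% of the Ube2c exon length. Pttg1, the gene of securin, which holds separase inactive, did not follow: it was at 42.9, 45.3 and 40.5 CPM in wild type, 55.0, 50.6 and 44.8 in CBFA2T2 knockout and 40.2, 41.4 and 53.3 in PRDM14-labelled libraries. The groups overlapped, and neither log2 difference (0.23 ± 0.12 and 0.07 ± 0.12) passed the test.

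**Figure D2:**
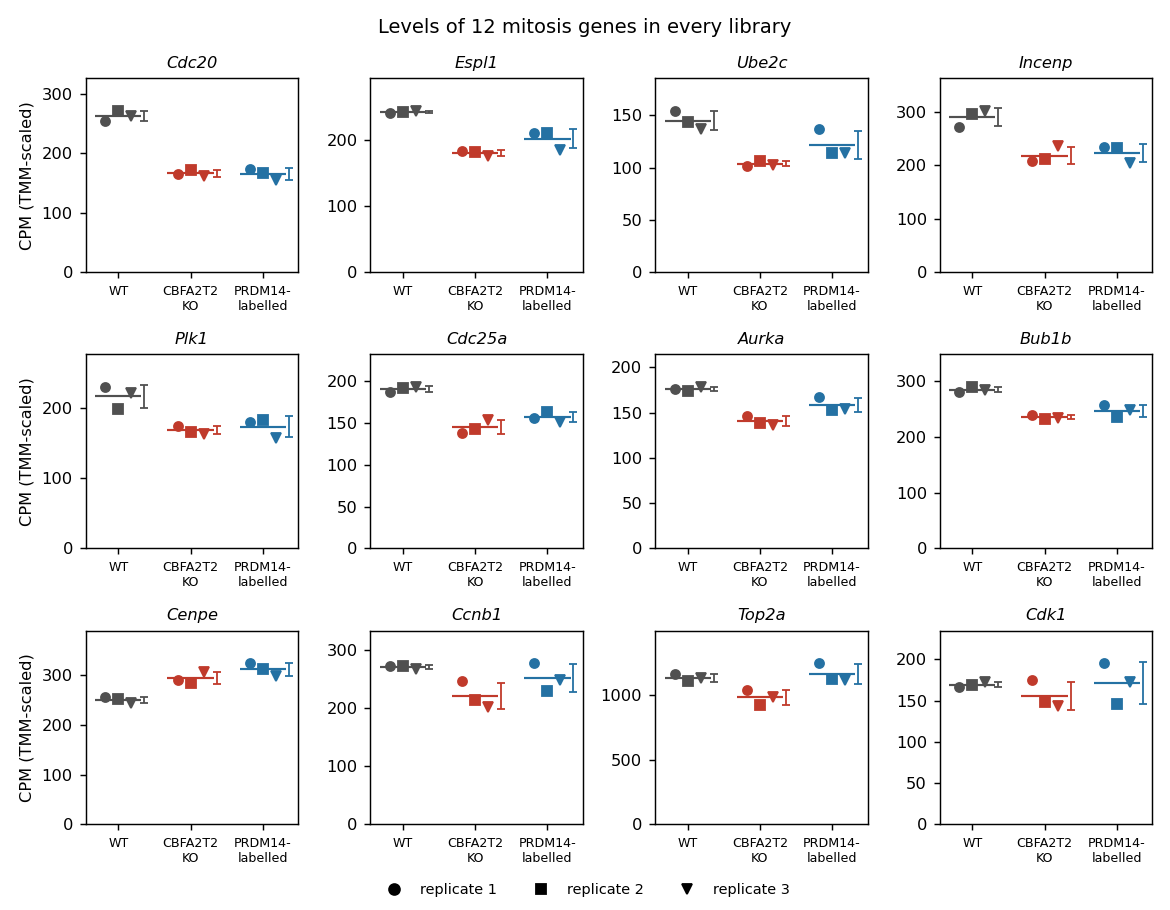
Levels (CPM, y axis from 0) of 12 members in each of the 9 libraries, with marker shapes for the replicate numbers, horizontal lines for the group means and bars of 1 SD. For Cdc20 the CBFA2T2 knockout and PRDM14-labelled libraries lie at 155 to 173 CPM, below wild type at 255 to 272, while Cdk1 overlaps across all 3 groups.

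Promoter sequence was looked at for all members, whether or not they passed the test. Many mitosis genes are known to carry a cell cycle homology region (CHR), bound by the MuvB complexes, and CCAAT boxes, bound by NF-Y. RefSeq promoter windows (GRCm38.p6, 250 bases before to 50 after the start) matched 28 of the 35 members. The windows were searched on both strands for TTTGAA or TTCGAA as the CHR and for CCAAT. The palindrome TTCGAA was counted once, and the letters at the ends of a CHR and a CCAAT may be shared. A CHR was found for 20 of the 28 (71.4%), a CCAAT for 22 (78.6%) and both for 18 (64.3%). Among the 10556 tested genes with a window, the shares were 16.0%, 43.1% and 8.02%, and among all 27025 genes with one, 21.7%, 41.1% and 9.65%. Of the 12 members that fell in CBFA2T2 knockout and had a window, 9 held a CHR and 11 a CCAAT; of the 14 that did not pass the test, 10 held each. A match of letters is a description and not a shown binding site.

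The 150 bases before the start are given for the 3 anaphase genes that fell and for the 2 kinetochore genes with a window that rose in CBFA2T2 knockout, 5′ to 3′ on the strand of the gene, with CHR and CCAAT letters of either strand in capitals.
Cdc20: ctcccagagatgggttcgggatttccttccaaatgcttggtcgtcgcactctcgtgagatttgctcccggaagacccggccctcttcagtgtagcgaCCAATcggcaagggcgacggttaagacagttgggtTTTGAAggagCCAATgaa
Espl1: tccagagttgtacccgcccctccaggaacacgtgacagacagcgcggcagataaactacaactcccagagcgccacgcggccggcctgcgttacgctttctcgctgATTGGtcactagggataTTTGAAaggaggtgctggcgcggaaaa
Ube2c: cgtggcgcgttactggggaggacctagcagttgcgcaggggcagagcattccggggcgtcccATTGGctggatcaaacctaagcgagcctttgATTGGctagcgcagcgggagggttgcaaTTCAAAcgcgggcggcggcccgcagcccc
Cenpe: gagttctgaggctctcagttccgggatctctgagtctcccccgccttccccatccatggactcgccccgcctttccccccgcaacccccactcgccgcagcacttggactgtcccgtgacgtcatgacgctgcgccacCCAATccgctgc
Ndc80: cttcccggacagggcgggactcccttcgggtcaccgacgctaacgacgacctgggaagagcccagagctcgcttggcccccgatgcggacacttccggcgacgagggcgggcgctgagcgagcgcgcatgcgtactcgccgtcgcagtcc
They lie at chr4:118437344-118437493 (minus strand), chr15:102296143-102296292 (plus), chr2:164769779-164769928 (plus), chr3:135212413-135212562 (plus) and chr17:71526858-71527007 (minus). The Cdc20, Espl1 and Ube2c stretches each hold 1 CHR, which begins at −18, −27 and −29 (the base before the start is −1), with at least 1 CCAAT upstream of it. The Cenpe stretch holds a CCAAT and no CHR, and the Ndc80 stretch holds neither, its only CHR match beginning 29 bases after the start. These stretches do not stand for all members. Cdc25a, Ccnb1 and Nek2 fell in CBFA2T2 knockout with no CHR in their windows. Ccnb2, Cdk1, Bub1, Kif11 and Kif23 held both motifs and passed the test in neither comparison with wild type.

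The mitotic kinase list held only Plk1, Aurka and Nek2; all 3 fell in CBFA2T2 knockout, and 2 of them in PRDM14-labelled libraries. Other kinase genes are described under other roles. Of these, Cdk1, Wee1, Bub1 and Ttk passed in neither comparison with wild type, and Aurkb was called in CBFA2T2 knockout alone. Plk1 was at 230.1, 199 and 221 CPM in wild type, 175, 166 and 164 in CBFA2T2 knockout and 180.4, 183 and 157 in PRDM14-labelled libraries. Neither of these groups reached the lowest wild-type library, and the log2 fold changes were −0.37 ± 0.08 (adjusted p = 0.0033) and −0.32 ± 0.08 (adjusted p = 0.00961). Aurka, the Aurora kinase of centrosomes and spindle poles, was at 175, 174 and 178 CPM in wild type, 146, 138 and 136 in CBFA2T2 knockout and 167, 153 and 154 in PRDM14-labelled libraries. The 3 groups did not overlap; the log2 fold change passed the test in CBFA2T2 knockout (−0.33 ± 0.07, adjusted p = 0.00226) and missed it in PRDM14-labelled libraries (−0.15 ± 0.07, adjusted p = 0.11). Nek2, a kinase that parts the centrosomes, was at 109, 112 and 119 CPM in wild type, 91.2, 89.6 and 91.4 in CBFA2T2 knockout and 98.7, 92.7 and 100.2 in PRDM14-labelled libraries. It fell in both, by log2 fold changes of −0.32 ± 0.07 (adjusted p = 0.00308) and −0.22 ± 0.07 (adjusted p = 0.0303). The second call was lost without PRDM14-labelled replicate 2 or wild type replicate 2 or 3 (adjusted p 0.0831 to 0.149). It was also lost with library totals alone (0.0792) and with no filter on low counts (0.0651).

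Among cyclins, CDK1 and its switch, 3 of 8 genes fell and 1 rose in CBFA2T2 knockout, while 1 fell in PRDM14-labelled libraries. Cdc25a, the phosphatase gene that also acts at the start of DNA replication, was at 187, 192 and 193 CPM in wild type, 138, 143 and 154 in CBFA2T2 knockout and 156, 163 and 151 in PRDM14-labelled libraries. All 6 libraries of these groups were below wild type, with log2 fold changes of −0.40 ± 0.07 (adjusted p = 0.000619) and −0.28 ± 0.07 (adjusted p = 0.00797). Ccna2, the cyclin A gene used in S phase and early mitosis, was at 302, 306 and 303 CPM in wild type, 260.0, 238 and 240.1 in CBFA2T2 knockout and 317, 258 and 257 in PRDM14-labelled libraries. It fell in CBFA2T2 knockout (−0.30 ± 0.08, adjusted p = 0.0121), a call lost without replicate 2 of that group (adjusted p = 0.0553) and with library totals alone (0.0516). In PRDM14-labelled libraries replicate 1 was above wild type and the other replicates below it, so the log2 difference of −0.13 did not pass; without that replicate it was −0.24 (adjusted p = 0.0254). Antisense exons of Exosc9 cover 12.5% of the Ccna2 exon length.

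Ccnb1, the main cyclin B gene, was at 272, 272 and 267 CPM in wild type, 246, 214 and 201 in CBFA2T2 knockout and 277, 229 and 247 in PRDM14-labelled libraries. It fell in CBFA2T2 knockout (−0.29 ± 0.09, adjusted p = 0.0177). The call was lost, at adjusted p of 0.0508 to 0.0739, without CBFA2T2 knockout replicate 2 or 3 or any 1 wild-type library. Library totals alone also lost it (adjusted p = 0.0733). Cdk1 itself, the kinase all of these act on, was at 166, 169 and 173 CPM in wild type, 175, 148 and 143 in CBFA2T2 knockout and 196, 145 and 173 in PRDM14-labelled libraries. The groups overlapped, and its log2 differences of −0.13 ± 0.10 and 0.02 ± 0.10 did not pass the test. Wee1, which inhibits CDK1, was at 83.9, 84.5 and 92.3 CPM in wild type, 58.5, 77.5 and 79.4 in CBFA2T2 knockout and 64.7, 83.5 and 72.3 in PRDM14-labelled libraries. Each of these 6 libraries was below wild type, but the spread within both groups was wide and neither difference passed (adjusted p = 0.0856 and 0.149).

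Cdc25c, another CDK1-activating phosphatase gene and the least abundant member per length, had means of 20.1 ± 1.38 CPM (SD, n = 3) in wild type, 24.6 ± 1.05 in CBFA2T2 knockout and 22.8 ± 1.73 in PRDM14-labelled libraries. It rose in CBFA2T2 knockout (0.30 ± 0.11, adjusted p = 0.0489), a call lost without any 1 of the 6 libraries (adjusted p up to 0.165). No filter on low counts also lost it (adjusted p = 0.0873). Of the Cdc25c exon length, 12.7% overlaps the antisense gene Gm3550. Cdc25b (log2 differences −0.18 and −0.12) and the second cyclin B gene Ccnb2 (0.03 and 0.06) did not pass in either comparison. Pseudogenes Ccnb1-ps and Ccnb2-ps are annotated, so the split of shared reads leaves the cyclin B counts uncertain. Ccnb2-ps had only 0 to 4 counts in a library, beside 1103 to 2366 for Ccnb2, and no count of Ccnb1-ps was available.

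Of the 5 spindle checkpoint genes, only Bub1b passed the test, in both comparisons. Bub1b, which encodes the BubR1 part of the complex that restrains CDC20, was at 280.1, 289 and 284 CPM in wild type, 239, 232 and 234 in CBFA2T2 knockout and 257, 235 and 247 in PRDM14-labelled libraries. Both of these groups lay below wild type, with log2 fold changes of −0.27 ± 0.07 (adjusted p = 0.0046) and −0.21 ± 0.07 (adjusted p = 0.0279). The second call was lost without any 1 wild-type library or PRDM14-labelled replicate 2 or 3 (adjusted p 0.0519 to 0.108). It was also lost with library totals alone (0.082) and with no filter on low counts (0.0566). Bub1, the kinase that brings checkpoint proteins to kinetochores, was at 204, 202 and 211 CPM in wild type, 206, 199.7 and 209 in CBFA2T2 knockout and 217, 223 and 252 in PRDM14-labelled libraries. PRDM14-labelled libraries were all above wild type, yet the difference of 0.17 ± 0.07 did not pass, except with library totals alone. Mad2l1, the gene of the CDC20-binding protein MAD2, was at 114, 109 and 112 CPM in wild type, 108, 89.5 and 92.9 in CBFA2T2 knockout and 169, 91.1 and 107 in PRDM14-labelled libraries. PRDM14-labelled replicate 1 stood above the other 8 libraries, and the standard errors of 0.20 and 0.19 were the widest of any member. Bub3 (−0.21 and −0.19) and the kinase gene Ttk (−0.10 and 0.10) did not pass; Bub3 passed in CBFA2T2 knockout without replicate 1 of that group (−0.29, adjusted p = 0.0361).

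In the chromosomal passenger complex, which corrects faulty attachments and later guides cytokinesis, 3 of 4 genes fell in CBFA2T2 knockout and 1 in PRDM14-labelled libraries. Incenp, its scaffold, was at 271, 296 and 302 CPM in wild type, 207, 211 and 235 in CBFA2T2 knockout and 234, 231 and 203 in PRDM14-labelled libraries. The 6 libraries of these groups were all below wild type, with log2 fold changes of −0.41 ± 0.08 (adjusted p = 0.00143) and −0.38 ± 0.08 (adjusted p = 0.00336). Aurkb, its kinase, was at 106, 106 and 99.5 CPM in wild type, 80.4, 86.1 and 95.1 in CBFA2T2 knockout and 101, 92.0 and 80.9 in PRDM14-labelled libraries. Its call in CBFA2T2 knockout (−0.25 ± 0.09, adjusted p = 0.0454) was lost with each other scaling, with DESeq2, and without CBFA2T2 knockout replicate 1 or 2 or any 1 wild-type library (adjusted p up to 0.186). In PRDM14-labelled libraries the difference of −0.19 passed only without replicate 1 (−0.26, adjusted p = 0.0497). Cdca8, the borealin gene, fell in CBFA2T2 knockout from 150.3 to 128 CPM (−0.23 ± 0.08, adjusted p = 0.0387). The call was lost without CBFA2T2 knockout replicate 1 or 2 or wild type replicate 2 or 3 (adjusted p 0.0955 to 0.165). It was also lost with library totals alone (0.172), with no filter on low counts (0.0505) and among genes averaging 5 CPM or more (0.0598). Birc5, the survivin gene, differed by −0.15 and −0.03 and did not pass.

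None of the 5 centromere and kinetochore genes fell; 2 rose in CBFA2T2 knockout and 1 in PRDM14-labelled libraries. Cenpe (chr3:135212537-135273611), a kinesin that carries chromosomes along spindle microtubules, was at 256, 251 and 244 CPM in wild type, 291, 284 and 306 in CBFA2T2 knockout and 324, 312 and 297 in PRDM14-labelled libraries. All 6 of these libraries were above wild type, with log2 fold changes of 0.23 ± 0.07 (adjusted p = 0.0155) and 0.31 ± 0.07 (adjusted p = 0.00333). The first call was lost without CBFA2T2 knockout replicate 3 or wild type replicate 3 (adjusted p 0.0532 and 0.0537), while the second held under every alternative tried. Ndc80, which binds microtubules at the kinetochore, rose in CBFA2T2 knockout from 49.9 to 58.2 CPM (0.22 ± 0.08, adjusted p = 0.0489). That call was lost without any 1 CBFA2T2 knockout library or wild type replicate 1 or 2 (adjusted p 0.0628 to 0.143). It was also lost with no filter on low counts (adjusted p = 0.0881). In PRDM14-labelled libraries the Ndc80 difference of 0.17 did not pass. Its partner Nuf2 differed by −0.02 and −0.13 and did not pass.

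Cenpa, the centromeric histone gene, was at 132, 135 and 139 CPM in wild type, 127, 129 and 133 in CBFA2T2 knockout and 145, 118 and 118 in PRDM14-labelled libraries. The large kinetochore protein gene Cenpf was at 428, 415 and 428 CPM in wild type, 424, 414 and 435 in CBFA2T2 knockout and 467, 471 and 387 in PRDM14-labelled libraries. The groups overlapped for both genes, and no difference passed the test.

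Among 5 spindle motor and assembly genes, Kif2c, a kinesin that takes microtubules apart, was the only one called. It fell in CBFA2T2 knockout from 131 to 111 CPM (−0.24 ± 0.07, adjusted p = 0.0161). The call was lost without CBFA2T2 knockout replicate 2 or wild type replicate 2 or 3 (adjusted p 0.065 to 0.0842). Library totals alone also lost it (adjusted p = 0.0855). In PRDM14-labelled libraries the Kif2c difference was −0.16. Kif11, the motor that pushes spindle poles apart, was at 227, 241 and 251 CPM in wild type, 212, 215 and 226 in CBFA2T2 knockout and 234, 212 and 227 in PRDM14-labelled libraries, and did not pass. The same held for the cytokinesis kinesin genes Kif20a (−0.13 and 0.05) and Kif23 (−0.06 and 0.12) and the spindle assembly gene Tpx2 (−0.13 and −0.03). Exons of Cdc23 on the other strand cover 29.3% of the Kif20a exon length.

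Top2a, which untangles sister chromatids, was the most abundant member in CPM: 1165, 1106 and 1129 in wild type, 1037, 922 and 988 in CBFA2T2 knockout and 1250.0, 1121 and 1120.4 in PRDM14-labelled libraries. CBFA2T2 knockout lay below both other groups, which overlapped each other. It fell in CBFA2T2 knockout (−0.21 ± 0.07, adjusted p = 0.0335). The call was lost without CBFA2T2 knockout replicate 2 or 3 or any 1 wild-type library (adjusted p up to 0.163). It was also lost with library totals alone (adjusted p = 0.173) and among genes averaging 5 CPM or more (0.0536). In PRDM14-labelled libraries the difference was 0.04 ± 0.07.

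**Figure D3:**
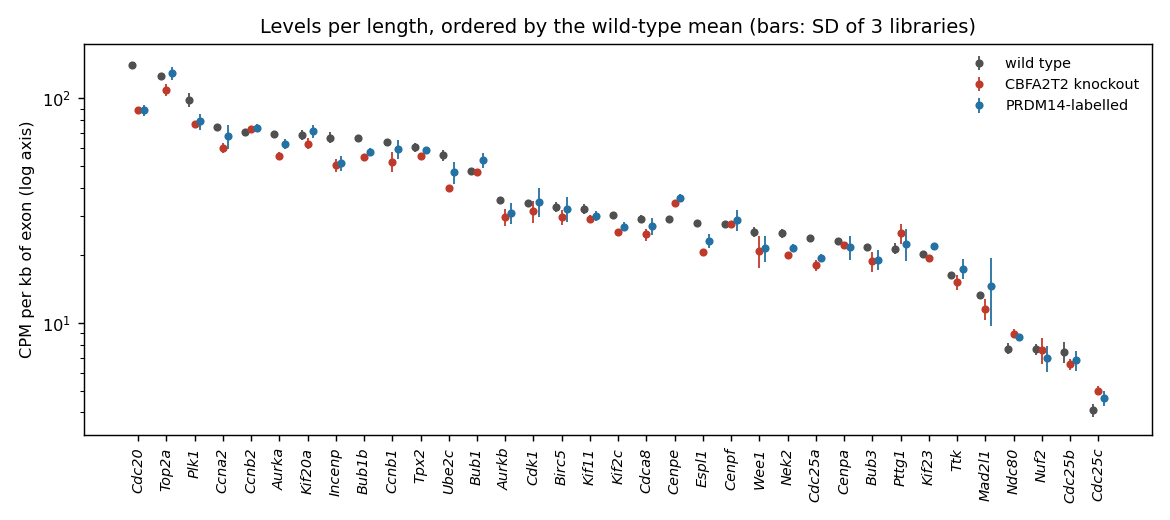
Level per length (CPM per kb of exon, log y axis) of the 35 members in the 3 groups, ordered by the wild-type mean, with bars of 1 SD over 3 libraries. Cdc20 is first in wild type at 141 and lies at 89.0 in CBFA2T2 knockout and 88.5 in PRDM14-labelled libraries, while Cdc25c is last at 4.08.

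Per kb of exon, wild-type levels ran from 141 ± 4.4 CPM per kb for Cdc20 (SD, n = 3), through 126 ± 3.3 for Top2a and 98.5 ± 7.3 for Plk1, down to 4.08 ± 0.28 for Cdc25c. Top2a, however, at 109 CPM per kb in CBFA2T2 knockout and 129 in PRDM14-labelled libraries, stood above Cdc20, at 89.0 and 88.5. Ndc80, Nuf2 and Cdc25b, at 7.68, 7.66 and 7.42 CPM per kb in wild type, could not be ordered beyond their spread.

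CBFA2T2 knockout and PRDM14-labelled libraries were also compared with each other. No member passed edgeR's test, though 7 had an unadjusted p under 0.05 and DESeq2's Wald test called 1, Top2a; limma-voom called 0. Of all tested genes 0.853% were called, 0.339% higher and 0.514% lower in CBFA2T2 knockout, and 2494 had an unadjusted p under 0.05. The smallest adjusted p was that of Top2a, at 0.116, with a log2 difference of −0.24 ± 0.07. The median difference of the members was −0.0838, beside −0.0035 over all tested genes, and 29 of 35 were negative. In 8 members (22.9%, beside 17.8% of all tested genes) every CBFA2T2 knockout library was below every PRDM14-labelled one: Aurka, Nek2, Bub1, Kif23, Tpx2, Ube2c, Espl1 and Top2a. Approximate 95% intervals of the member differences, by a normal approximation that is narrow for so few libraries, reached from −0.72 to 0.391 on the log2 scale. The missing calls therefore do not show equal levels. Members called in CBFA2T2 knockout and not in PRDM14-labelled libraries, such as Aurka and Top2a, are therefore not shown to differ between these groups.

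**Figure D4:**
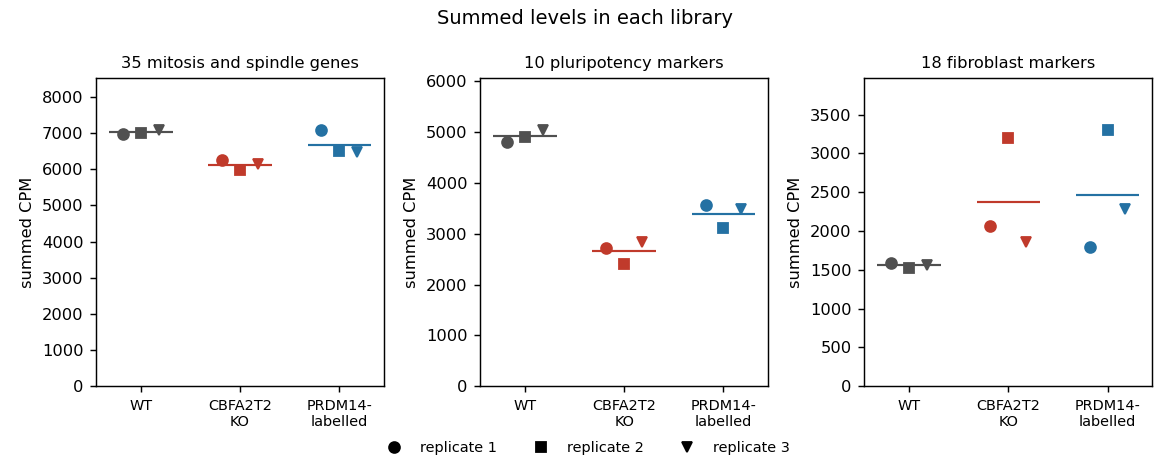
Summed levels (CPM, y axis from 0) in each of the 9 libraries of the 35 members, 10 pluripotency markers and 18 fibroblast markers, with lines at group means. Member sums of CBFA2T2 knockout, 5973 to 6267 CPM, lie below wild type at 6971 to 7093, and replicate 2 of CBFA2T2 knockout and of PRDM14-labelled libraries has the highest fibroblast sum.

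The members together took 6971 to 7093 CPM in wild type, 5973 to 6267 in CBFA2T2 knockout and 6474 to 7079 in PRDM14-labelled libraries. PRDM14-labelled replicate 1 lay within the wild-type range and its replicates 2 and 3 below it. The median member log2 difference from the wild-type mean was −0.14, −0.22 and −0.20 in CBFA2T2 knockout replicates 1 to 3, and 0.0063, −0.20 and −0.13 in PRDM14-labelled replicates. Replicate 2 of each of these groups, which had the lowest median, also had the most fibroblast marker RNA and the least pluripotency marker RNA of its group. Without both of these libraries, an alternative chosen after seeing the data, 11 members fell and 1 rose in CBFA2T2 knockout, and 5 fell and 1 rose in PRDM14-labelled libraries. Otherwise, the part of either marker list in the member levels was not tested.

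The wider mitosis pathway was read from a list of 150 other genes, of which 143 were tested. In CBFA2T2 knockout 40 fell and 12 rose (28% and 8.39%, beside 19.6% and 18.9% of all tested genes), with a median log2 fold change of −0.0966. In PRDM14-labelled libraries 20 fell and 19 rose (14% and 13.3%), both shares below the 15.3% and 14.6% of all tested genes, with a median of −0.0312. None was called between CBFA2T2 knockout and PRDM14-labelled libraries. Upstream of mitosis, the S-phase list of 30 genes, which includes replication factors, had 14 lower (46.7%) and 0 higher in CBFA2T2 knockout (median −0.29) and 7 lower (23.3%) and 0 higher in PRDM14-labelled libraries (−0.10). Its leading genes were Ccne1, the cyclin E gene of S-phase entry (−1.47 and −1.16), Ung, a DNA repair glycosylase gene (−1.06 and −0.82), and Mcm5, a helicase subunit gene (−0.52 and −0.45).

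**Figure D5:**
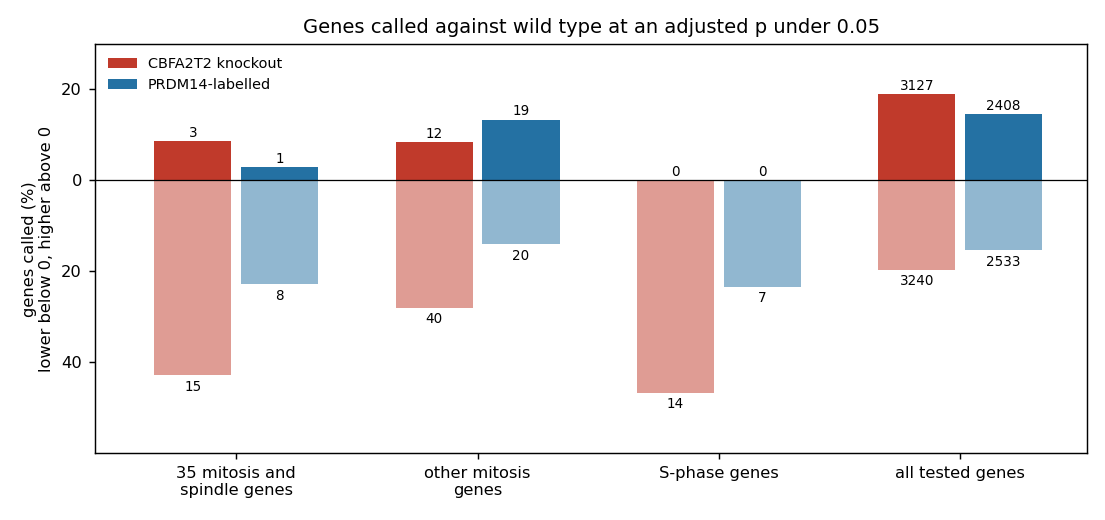
Share of genes called against wild type (percent, lower below 0 and higher above 0; numbers are gene counts) for the 35 members, the other mitosis genes, the S-phase list and all tested genes, in CBFA2T2 knockout (red) and PRDM14-labelled libraries (blue). The members and the S-phase list have 15 and 14 lower genes in CBFA2T2 knockout and few or no higher ones.

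Beside the counts of the lists that follow, the shares over all tested genes were 19.6% lower and 18.9% higher in CBFA2T2 knockout, and 15.3% lower and 14.6% higher in PRDM14-labelled libraries; whether any list departs from them was not tested. Paired values give CBFA2T2 knockout first. The list of CDK1 inputs and substrates of entry, 18 genes, also includes transcription regulator genes such as E2f4 and Mybl2. Of its genes, 4 fell and 1 rose in CBFA2T2 knockout, and 3 fell and 2 rose in PRDM14-labelled libraries. E2f4, a cell cycle transcription factor gene, fell in both (−0.86 and −0.73), as did Ccnf, the cyclin F gene (−0.33 and −0.25). Ccng2, an atypical cyclin gene, rose in both (0.47 and 0.53). Mybl2, whose product activates mitotic genes together with MuvB, fell in CBFA2T2 knockout (−0.54), and its difference of −0.27 in PRDM14-labelled libraries did not pass (adjusted p = 0.0687). Of 18 genes of APC/C and its regulators, 5 fell and 2 rose in CBFA2T2 knockout, and 2 fell and 1 rose in PRDM14-labelled libraries. Fzr1, the other APC/C activator beside Cdc20, fell by 0.51 and 0.57 on the log2 scale, and Ube2s, which extends ubiquitin chains, fell by 0.33 and 0.34. The APC/C subunit gene Anapc16 rose in both (0.41 and 0.38).

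Inner kinetochore genes, 18 in all, had 4 lower and 1 higher in CBFA2T2 knockout, and 3 lower and 2 higher in PRDM14-labelled libraries. Cenpb, whose product binds centromeric repeats, fell in both (−0.60 and −0.74), and so did Cenpm (−0.84 and −0.45). Hjurp, the CENP-A chaperone gene, rose in both (0.25 and 0.28). Cenpt fell in PRDM14-labelled libraries (−0.30), and its difference of −0.20 in CBFA2T2 knockout did not pass (adjusted p = 0.0713). Of 20 outer kinetochore and checkpoint genes 6 fell and 2 rose in CBFA2T2 knockout, and 2 fell and 6 rose in PRDM14-labelled libraries; 0 of the 20 were called between these groups. Zwint, a kinetochore scaffold gene, rose in both (0.69 and 0.38). Trip13, an ATPase gene that takes checkpoint complexes apart, fell in both (−0.47 and −0.37), as did the checkpoint gene Mad1l1 (−0.32 and −0.39). Casc5, the KNL1 gene, fell in CBFA2T2 knockout (−0.44), and its difference of −0.19 in PRDM14-labelled libraries did not pass (adjusted p = 0.0643).

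Among 35 other spindle motor and microtubule genes, 8 fell and 2 rose in CBFA2T2 knockout, and 4 fell and 3 rose in PRDM14-labelled libraries. The centrosome gene Pcnt fell in both (−0.42 and −0.37), as did the kinesin gene Kif22 (−0.31 and −0.25). Nedd1, which brings gamma-tubulin to the spindle, rose in both (0.46 and 0.47), as did the chromosome kinesin gene Kif4 (0.29 and 0.33). Condensin and cohesin, 20 genes, had 9 lower and 1 higher in CBFA2T2 knockout, and 3 lower and 2 higher in PRDM14-labelled libraries. Gsg2, the gene of haspin, a histone kinase that helps place the passenger complex, fell in both (−0.94 and −0.61). The same was true of Rad21, the cohesin subunit that separase cuts (−0.47 and −0.42), and of the cohesin release gene Wapal (−0.36 and −0.32). Esco2, a cohesin acetyltransferase gene, fell in CBFA2T2 knockout (−0.42), and its difference of −0.13 in PRDM14-labelled libraries did not pass (adjusted p = 0.252). The cytokinesis list, 14 genes that include other cell cycle genes such as Plk2, Plk3 and Cdkn3, had 4 lower and 3 higher in CBFA2T2 knockout. Plk2 and Cdkn3 were among the higher ones, and Plk3 was among the lower ones. The list had 3 lower and 3 higher in PRDM14-labelled libraries. Plk2, a relative of Plk1, rose in both (1.01 and 0.76), as did Rhoa, the GTPase gene of the contractile ring (0.28 and 0.42). Ect2, which activates RhoA at the division plane, fell in both (−0.35 and −0.22), and so did Kif20b (−0.44 and −0.23). Anln rose in PRDM14-labelled libraries (0.42), and its difference of 0.22 in CBFA2T2 knockout did not pass (adjusted p = 0.0628).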

How the data were processed

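Stranded polyA RNA libraries were made by the dUTP method, per the labels' protocols. The authors deposited 1 table of raw counts per library with gene coordinates. Levels are counts divided by library total and TMM factor (CPM). The submitters' processing notes name Bowtie and mm9, but of the 32860 gene IDs also in GENCODE M21 (GRCm38) 78.1% had identical coordinates there and none changed chromosome, so coordinates here are taken as GRCm38. Counter, annotation and strand setting were not given in the sources used here.

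Counts were fitted with edgeR 4.0.16 (R 4.3.3): TMM scaling, filterByExpr, robust quasi-likelihood fit of 9 libraries in 3 groups, and Benjamini-Hochberg adjustment over all tested genes, called under 0.05. DESeq2 1.42.0, limma 3.58.1 and other scalings, filters and left-out libraries were alternatives. The code was tested on simulated data, with changes larger than those of any member. Exon lengths and overlaps came from GENCODE M21, and promoters from RefSeq. Members and lists were chosen with earlier results of these data known. Values in every library are given for 16 leading regulators and for each called member among the 10 lowest adjusted p of a comparison, other members are given by group, and other pathway genes by up to 3 called with the lowest adjusted p per list; 1 such gene is not reported here. Intervals at a nominal level of 95% use a normal approximation and cover replicate spread. Reads carry no molecular identifiers. Replicates differed beyond sampling noise, and all 9 libraries were used.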

Additional observations from a re-analysis of the deposited data

How the results depend on the processing

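Over 19 alternatives, 1680 member log2 fold changes were recomputed: 1586 stayed on their side of the threshold, 87 lost their call, 7 gained one and no call reversed. The sign of differences that were not called could change, as for Mad2l1 in PRDM14-labelled libraries (−0.17 to 0.31). In CBFA2T2 knockout 9 members (Cdc25a, Plk1, Aurka, Nek2, Bub1b, Incenp, Cdc20, Ube2c and Espl1) and in PRDM14-labelled libraries 5 (Cdc25a, Plk1, Incenp, Cenpe and Cdc20) were called under every alternative. Against 15 lower and 3 higher in CBFA2T2 knockout, 8 lower and 1 higher in PRDM14-labelled libraries, and 141 genes called between these groups, the counts that moved were these. Library totals alone gave 9 lower in CBFA2T2 knockout and 5 lower and 2 higher in PRDM14-labelled libraries; they moved the median of all genes to 0.0917 at most and the share of calls that were higher from 49.1% to 61.2% in CBFA2T2 knockout and from 39.7% to 50% between CBFA2T2 knockout and PRDM14-labelled libraries. No filter on low counts gave 1 higher in CBFA2T2 knockout and 328 genes between these groups. DESeq2's Wald test gave 602 such genes, with 1 member lower. Fitting only the groups compared gave 24 such genes, with 58.3% higher. Leaving out replicate 2 of both groups gave 1 higher in CBFA2T2 knockout and 5 lower in PRDM14-labelled libraries. Leaving out 1 library gave 9 to 14 lower and 0 to 1 higher in CBFA2T2 knockout, 4 to 10 lower in PRDM14-labelled libraries, and 24 to 597 genes between these groups (24 without CBFA2T2 knockout replicate 2, 597 without PRDM14-labelled replicate 2). The causes were not tested beyond the fewer libraries or genes fitted.

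Equal replicate numbers were not shown to pair libraries. Same-number correlations of deviations were 0.0796, −0.0065 and 0.101 between CBFA2T2 knockout and wild type. They were 0.0626, −0.0082 and 0.0658 between PRDM14-labelled libraries and wild type, and 0.0607, 0.296 and 0.131 between CBFA2T2 knockout and PRDM14-labelled libraries. In the last comparison each CBFA2T2 knockout library correlated best with the PRDM14-labelled library of its own number. That is a hint from the data and not the design. With the replicate number as a block, 1 member rather than 3 was higher in CBFA2T2 knockout and 392 genes were called between CBFA2T2 knockout and PRDM14-labelled libraries; Wee1 was called lower in CBFA2T2 knockout (−0.29, adjusted p = 0.0324).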
